A study of Rattus norvegicus with 19 samples.

Results

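The 9 genes described here encode steroid reductases and dehydrogenases (Akr1c1, AKR1C3l1, Hsd11b1, Srd5a1 and Hsd17b2), cytosolic sulfotransferases (Sult1e1, Sult1a1 and Sult1b1) and an acetyltransferase (Nat8). They were taken by name: every non-control array probe whose gene name in the scanner files, or whose current symbol by accession or synonym, was 1 of the 9. This gave 12 of 41012 non-control probes. The 9 genes were among 11279 named genes with a probe kept for testing (25290 probes were kept). The probe of Akr1c1 was named Akr1c6 on the array, that of Sult1e1 was named Ste and that of Nat8 was named Cml4. These 3 were matched by accession, and the AKR1C3l1 probe was matched by an older synonym.

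Livers came from adult male Wistar rats that were put on 1 of 3 diets at 8 weeks, stayed on it for 4 months and were killed fed in the early morning. The high fat diet (HF, 6 rats) took 60% of its energy from fat, 20% from carbohydrate and 20% from protein. The high protein diet (HP, 6 rats) took 45% from protein, 45% from carbohydrate and 10% from fat, and the low fat control diet (Control, 7 rats) took 20% from protein, 70% from carbohydrate and 10% from fat. HF and Control thus differed in fat and carbohydrate at an equal share of protein, and HP and Control differed in protein and carbohydrate at an equal share of fat. RNA of each rat was hybridised in Cy5 against an equimolar liver pool in Cy3 on a 2-colour Agilent array, with no dye swap, so each value is the log2 ratio of 1 liver to the pool.

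Liver takes up steroids, thyroid hormones, drugs and dietary phenols and makes them inactive or soluble. Reductases and dehydrogenases of the aldo-keto reductase (AKR) and short-chain dehydrogenase families switch keto and hydroxyl groups on steroids, and with them the hormone's activity. Sulfotransferases add a sulfate from the donor PAPS, which usually ends receptor binding and aids excretion. N-acetylation of cysteine conjugates is the last step of mercapturic acid synthesis, a route for electrophiles first bound to glutathione. Many of these genes differ between the sexes in rodent liver, and all animals here were male.

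The arrays measured 54.2% to 67.5% of spots well above background in Cy5. The number of arrays limits the precision of every comparison. All 12 probes of the 9 genes were well above background in Cy5 on all 19 arrays, none was saturated and no value was missing. Hepatocyte markers (10 of 10 measured) had array medians between 0.09 and 0.38 on the log2 scale. Control 6 stood apart: the median of its 9 measured lymphocyte markers was 2.56, against -0.93 to -0.60 in the other 18 livers. Leaving out Control 6 changed no call of the 9 genes in any comparison, and values without it are given for the 4 called genes and Srd5a1 in HF over Control livers. In bulk liver, fewer cells of a type and less RNA per cell cannot be told apart.

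The probes lie, in the rn4 coordinates of the array annotation, on chromosome 17 for Akr1c1 (chr17:77084347-77084406, minus strand) and AKR1C3l1 (chr17:76902099-76903654, plus strand). The span of 1556 bases of the AKR1C3l1 probe exceeds its 60-base length on the array design, so its annotated match crosses an intron. Sult1e1 (chr14:21949856-21949915) and the Sult1b1 probes (chr14:22031714-22031773 and chr14:22031815-22031874) lie near each other on the plus strand of chromosome 14. The Nat8 probe lies on the minus strand at chr4:120001404-120001463. Hsd11b1 is on chromosome 13, Hsd17b2 on chromosome 19 and Sult1a1 on chromosome 1. The array annotation puts Srd5a1 on chromosome 17, whereas the RefSeq table of the newer GRCr8 build puts it on chromosome 1. The AKR1C, SULT1 and NAT8 genes have close paralogs, and signal that a probe draws from a paralog's RNA cannot be told apart from its own.

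Promoter sequence from RefSeq (GRCr8) was given for 6 of the 9 genes. The 250 bases before the annotated start are shown for the genes called higher in HF livers that have an entry (AKR1C3l1, Sult1e1 and Nat8) and for Sult1b1, the neighbour of Sult1e1 that was not called. Capitals mark matches on either strand to any of 5 motifs. The TATA box was searched as TATAAA and the nuclear receptor half-site as AGGTCA. The half-site of the glucocorticoid and androgen receptors was searched as AGAACA and the STAT element as TTCNNNGAA. The fifth motif was the CCAAT box. The sequences run 5′ to 3′ towards the start at chr17:70757251-70757500 (plus strand), chr14:20701230-20701479 (plus), chr4:119837765-119838014 (minus) and chr14:20771667-20771916 (plus).
AKR1C3l1: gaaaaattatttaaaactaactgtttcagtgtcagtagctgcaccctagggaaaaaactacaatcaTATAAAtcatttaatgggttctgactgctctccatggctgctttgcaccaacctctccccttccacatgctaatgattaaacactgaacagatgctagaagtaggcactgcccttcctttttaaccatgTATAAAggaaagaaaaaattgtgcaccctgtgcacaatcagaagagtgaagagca
Sult1e1: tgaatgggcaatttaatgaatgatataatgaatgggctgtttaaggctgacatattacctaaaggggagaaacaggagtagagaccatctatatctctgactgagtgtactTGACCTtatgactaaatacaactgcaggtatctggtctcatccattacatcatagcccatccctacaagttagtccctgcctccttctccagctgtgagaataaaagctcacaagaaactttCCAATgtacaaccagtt
Nat8: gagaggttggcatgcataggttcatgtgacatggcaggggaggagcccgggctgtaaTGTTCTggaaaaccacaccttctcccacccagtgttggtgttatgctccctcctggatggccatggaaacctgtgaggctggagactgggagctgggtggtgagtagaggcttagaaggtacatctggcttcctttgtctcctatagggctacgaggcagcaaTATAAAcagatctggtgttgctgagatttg
Sult1b1: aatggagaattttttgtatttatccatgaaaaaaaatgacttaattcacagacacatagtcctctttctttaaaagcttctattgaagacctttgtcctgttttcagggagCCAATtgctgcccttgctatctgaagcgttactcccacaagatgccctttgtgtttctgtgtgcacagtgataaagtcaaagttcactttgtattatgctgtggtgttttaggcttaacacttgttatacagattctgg

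TATAAA stood 55 to 50 and 184 to 179 bases before the AKR1C3l1 start and 30 to 25 bases before the Nat8 start, and 12.9% of 33469 promoter windows of this length hold it on either strand. AGGTCA was found on the minus strand of the Sult1e1 window, 139 to 134 bases before the start, and 14.1% of windows hold it. AGAACA was found on the minus strand of the Nat8 window, 193 to 188 bases before the start, and 17.5% of windows hold it. It also stood on the plus strand of the window of Sult1a1 (not shown), a gene not called, 89 to 84 bases before the start. CCAAT, held by 34.0% of windows, stood in the Sult1e1 and Sult1b1 windows. It also stood in that of Srd5a1 (not shown), which was not called, 165 to 161 and 52 to 48 bases before the start. TTCNNNGAA, held by 7.67% of windows, was in none of the 6 windows. None of the 5 motifs was shared by all 3 windows of genes called higher, and a match is a description of letters only.

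**Figure D1:**
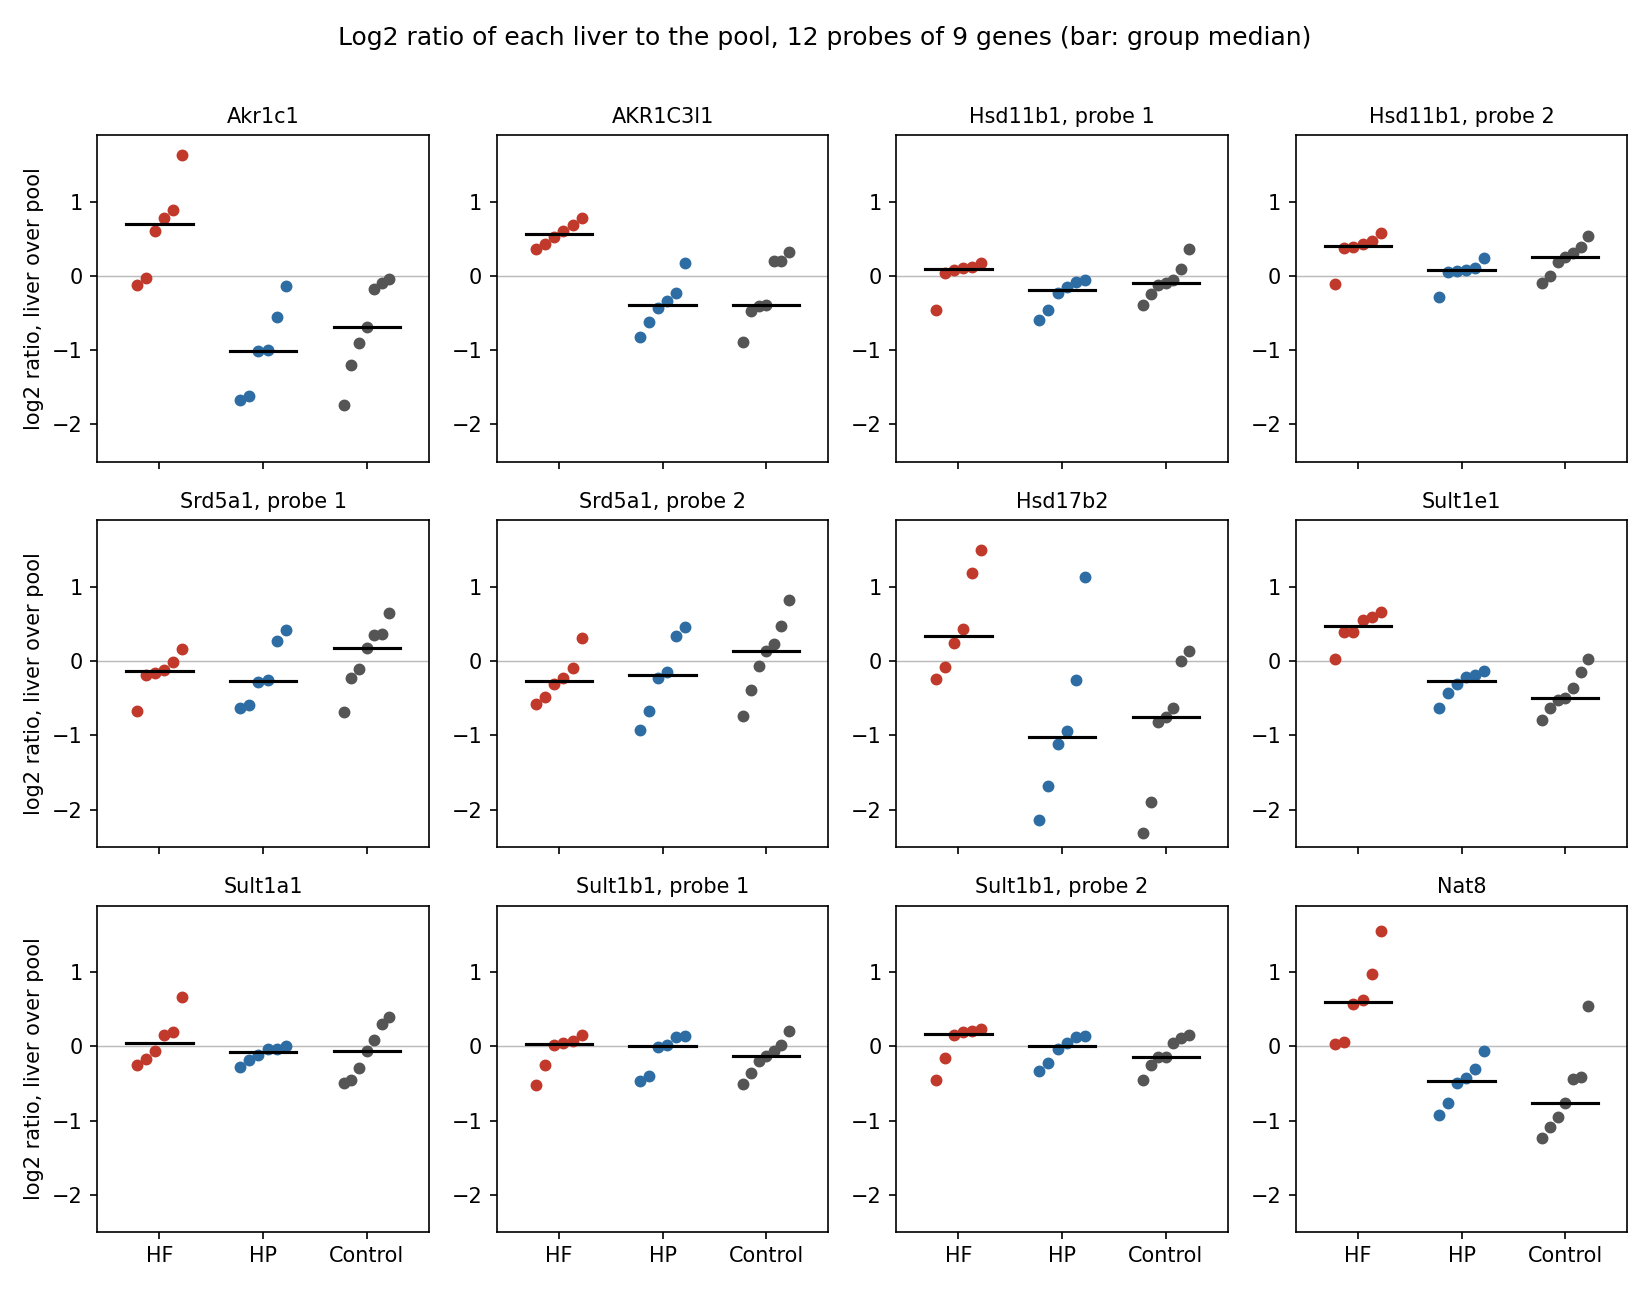
Log2 ratio of each liver to the pool (vertical axis) for the 12 probes of the 9 genes, with HF, HP and Control livers from left to right; each point is 1 liver and each bar a group median. HF livers lie highest for Akr1c1, AKR1C3l1, Sult1e1 and Nat8, with HF medians of 0.70, 0.57, 0.48 and 0.60, and the 3 groups lie over each other for Srd5a1, Sult1a1 and Sult1b1.

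Of the 9 genes, 4 were higher in HF than in Control livers: the aldo-keto reductases Akr1c1 (2.49-fold) and AKR1C3l1 (1.71-fold), the estrogen sulfotransferase Sult1e1 (1.81-fold) and the acetyltransferase Nat8 (2.39-fold). None was lower. By probe, 4 of 12 (33.3%) passed an adjusted p of 0.05 in limma, against 3.46% of all 25290 probes tested in either direction, 1.72% higher and 1.73% lower. The median log2 fold change of the 12 probes was 0.15, against -0.01 over all probes. The same 4 genes were higher in HF than in HP livers, where 7.08% of all probes passed (3.27% higher and 3.81% lower), and the probes' median was 0.29 against 0.0014 over all probes. Of the 12 probes 0 passed between HP and Control livers, where 0.447% of all probes did; none had an unadjusted p under 0.05 there either. The HF comparisons share the HF livers, so they are not separate evidence. The 9 genes and the lists below were chosen with earlier results of these data known. Their shares set against all probes are thus a description only.

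Over all probes, the HF over Control calls split into 436 higher and 438 lower, and into 285 and 463 when arrays were centred on their median in place of loess. For HF over HP the split was 827 and 964, and 518 and 925 with median centring. For HP over Control it was 78 and 35. That split was 27 and 5 with median centring, 32 and 29 with normexp fitted on all spots, 51 and 12 with the scanner's processed signals and 81 and 9 with the deposited log2 values.

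**Figure D2:**
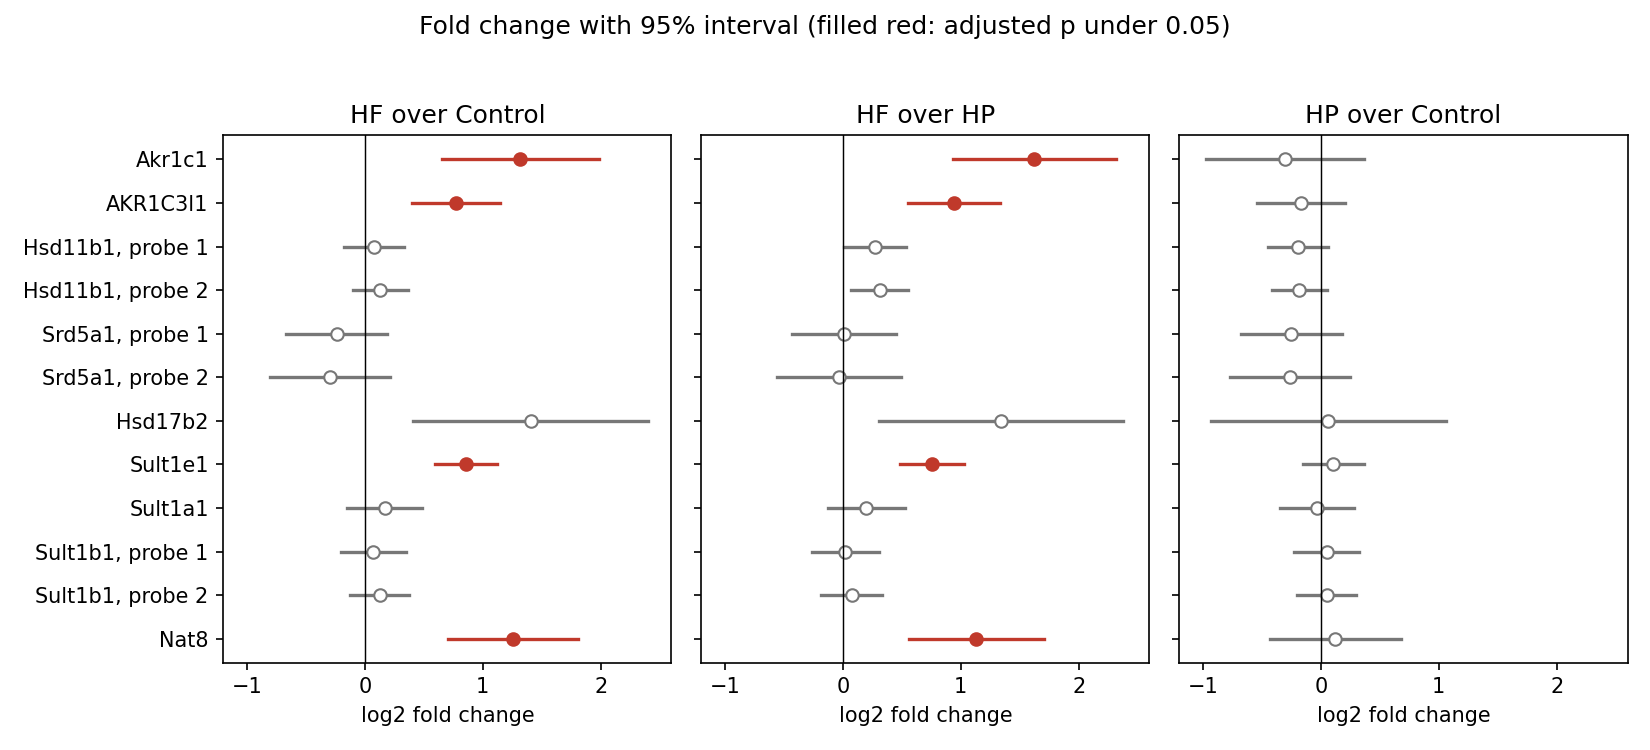
Log2 fold change of each probe (horizontal axis) with its 95% interval from the limma fit, for HF over Control, HF over HP and HP over Control from left to right; filled red points have an adjusted p under 0.05. Akr1c1, AKR1C3l1, Sult1e1 and Nat8 lie right of 0 in both HF comparisons, Hsd17b2 has the widest intervals, and every HP over Control interval spans 0.

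Akr1c1, a member of the aldo-keto reductase 1C family that acts on steroid keto and hydroxyl groups, had log2 ratios of -0.11 to 1.63 (median 0.70) in HF livers, -1.67 to -0.13 (median -1.005) in HP livers and -1.74 to -0.04 (median -0.69) in Control livers. All 6 HF livers lay above all 6 HP livers, and 5 of 6 lay above every Control liver. The log2 fold change was 1.32 ± 0.32 (SE) for HF over Control (limma, adjusted p = 0.0234) and 1.63 ± 0.33 for HF over HP (adjusted p = 0.0050). Leaving out HF 5, the highest liver, gave 1.12 for HF over Control (adjusted p = 0.0650), and the call was also lost without HF 3 (1.29, adjusted p = 0.0527) or Control 2 (1.23, adjusted p = 0.0519). HP and Control livers overlapped, with a difference of -0.31 (95% interval -0.97 to 0.36). With slide as a fixed block the calls stayed just under the threshold, at adjusted p = 0.04998 for HF over Control and 0.0442 for HF over HP (limma). Without Control 6, HF over Control was 1.32.

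AKR1C3l1, a second aldo-keto reductase of the same cluster on chromosome 17, was tightly grouped in HF livers. Its log2 ratios were 0.36 to 0.78 (median 0.57) in HF livers, -0.82 to 0.17 (median -0.38) in HP livers and -0.89 to 0.33 (median -0.39) in Control livers. HF livers overlapped with neither group. The SD was 0.16 in HF livers (n = 6), against 0.34 in HP livers (n = 6) and 0.45 in Control livers (n = 7), a difference in spread that was not tested. HF over Control was 0.77 ± 0.18 (limma, adjusted p = 0.0175) and HF over HP was 0.94 ± 0.19 (adjusted p = 0.0037). With slide as a fixed block the HF over Control difference was 0.87 and missed the threshold (adjusted p = 0.0537), as it did with median centring in place of loess (0.75, adjusted p = 0.0517). Without Control 6 the difference was 0.74. For HP over Control the difference was -0.17 (95% interval -0.54 to 0.20).

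Within slides, which hold up to 4 arrays each, both AKR genes were higher in HF livers wherever the comparison could be made. For Akr1c1 the HF minus Control difference was 0.93 on slide 1 (1 liver against 1), 1.06 on slide 2 (2 against 2) and 2.45 on slide 3 (3 against 1). AKR1C3l1 differed by 0.36, 0.74 and 1.05 on the same slides. HF and HP livers shared slide 1 only, where 1 HF liver exceeded the mean of 2 HP livers by 2.20 for Akr1c1 and by 1.40 for AKR1C3l1.

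Hsd17b2, the dehydrogenase that oxidises estradiol to estrone and testosterone to androstenedione, varied more than any other of the 9 genes. Its log2 ratios were -0.24 to 1.505 (median 0.34) in HF livers, -2.15 to 1.14 (median -1.03) in HP livers and -2.31 to 0.13 (median -0.76) in Control livers. In HF livers 4 of 6 values lay above every Control liver, and the groups overlapped. The HF over Control difference was 1.41 ± 0.48, with a 95% interval of 0.41 to 2.40, an unadjusted p of 0.0082 and an adjusted p of 0.128 in limma, so it was not called. HF over HP was 1.34 ± 0.50 (adjusted p = 0.115), and it passed when HP 3, the highest HP liver, was left out (1.74, adjusted p = 0.0224). HP over Control was 0.06, with an interval of -0.93 to 1.06 that leaves large changes in either direction possible.

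Hsd11b1, which regenerates active glucocorticoid from its inert 11-keto form in liver, was measured by a pair of probes that followed each other over the 19 livers (r = 0.94). The first probe had log2 ratios of -0.45 to 0.17 (median 0.10) in HF livers, -0.60 to -0.05 (median -0.19) in HP livers and -0.38 to 0.37 (median -0.10) in Control livers. The second had -0.10 to 0.58 (median 0.41), -0.28 to 0.24 (median 0.08) and -0.10 to 0.54 (median 0.26) in HF, HP and Control livers. On both, HF livers lay mostly above HP livers and overlapped with Control livers. HF over HP was 0.27 (95% interval 0.01 to 0.54, adjusted p = 0.229) and 0.31 (0.07 to 0.55, adjusted p = 0.117), and neither was called in limma. HF 6 was the lowest HF liver on both probes, and without it the second probe gave 0.40 (adjusted p = 0.0255). HF over Control was 0.08 (-0.18 to 0.33) and 0.13 (-0.10 to 0.36), and HP over Control was -0.19 (-0.45 to 0.06) and -0.18 (-0.42 to 0.05).

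Srd5a1, the 5α-reductase that converts testosterone to dihydrotestosterone and reduces glucocorticoids, was not called in any comparison. Its first probe had log2 ratios of -0.68 to 0.16 (median -0.14) in HF livers, -0.64 to 0.43 (median -0.26) in HP livers and -0.68 to 0.65 (median 0.18) in Control livers. The second had -0.58 to 0.32 (median -0.26), -0.92 to 0.46 (median -0.19) and -0.73 to 0.83 (median 0.14) in HF, HP and Control livers, and the probes correlated at r = 0.95. The groups overlapped on both. HF over Control was -0.24 (95% interval -0.67 to 0.19) and -0.30 (-0.81 to 0.21), and without Control 6, the lowest Control liver, it was -0.37 and -0.43, still not called. HP over Control was -0.25 (-0.68 to 0.18) and -0.27 (-0.77 to 0.25), and HF over HP was 0.01 (-0.43 to 0.45) and -0.03 (-0.56 to 0.49).

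Sult1e1, the estrogen sulfotransferase, had the smallest adjusted p of the 9 genes. Its log2 ratios were 0.033 to 0.67 (median 0.48) in HF livers, -0.63 to -0.13 (median -0.26) in HP livers and -0.79 to 0.025 (median -0.50) in Control livers. All HF livers lay above all HP and all Control livers, with HF 6 just above Control 4. HF over Control was 0.86 ± 0.12 (limma, adjusted p = 0.000607), rank 53 of 25290 by p, and HF over HP was 0.75 ± 0.13 (adjusted p = 0.0012). HP over Control was 0.10 (95% interval -0.16 to 0.36). Without Control 6, HF over Control was 0.87.

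Within slides, Sult1e1 was higher in HF than in Control livers by 1.46 on slide 1, 0.75 on slide 2 and 0.47 on slide 3, and higher in the HF liver than in the HP livers of slide 1 by 1.09. With slide as a fixed block HF over HP was 0.67 and missed the threshold (limma, adjusted p = 0.116), with 1 slide holding both diets. HF over Control passed in all 14 settings tried and without each single liver, with a highest adjusted p of 0.0087 (limma). The settings are not independent. Aquantile scaling between arrays leaves log ratios as they are. So do the settings for the filter, the gene summary, slide, replicate number and the groups fitted.

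The other sulfotransferases were not called. Sult1a1, which sulfonates phenols, had log2 ratios of -0.25 to 0.67 (median 0.05) in HF livers, -0.28 to 0.012 (median -0.07) in HP livers and -0.49 to 0.39 (median -0.06) in Control livers. The groups overlapped, and the HF over Control difference was 0.17 (95% interval -0.15 to 0.48), HF over HP 0.20 (-0.13 to 0.53) and HP over Control -0.03 (-0.35 to 0.28). Sult1b1, which sulfonates thyroid hormones and simple phenols, gave -0.52 to 0.16 (median 0.04) in HF livers, -0.46 to 0.14 (median 0.0026) in HP livers and -0.51 to 0.21 (median -0.13) in Control livers on its first probe. The second gave -0.45 to 0.23 (median 0.17), -0.33 to 0.14 (median 0.0067) and -0.45 to 0.16 (median -0.14) in HF, HP and Control livers, with r = 0.96 between the probes. HF over Control was 0.07 (-0.20 to 0.35) and 0.12 (-0.13 to 0.38), HF over HP 0.02 (-0.26 to 0.31) and 0.07 (-0.19 to 0.34), and HP over Control 0.05 (-0.22 to 0.32) and 0.05 (-0.20 to 0.30). The intervals of Sult1b1 thus ended below the lower bound of Sult1e1 (0.60 to 1.12) for HF over Control, though the difference between the genes was not tested.

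Nat8, whose human form acetylates cysteine conjugates in the last step of mercapturic acid synthesis, had log2 ratios of 0.04 to 1.56 (median 0.60) in HF livers, -0.93 to -0.05 (median -0.46) in HP livers and -1.23 to 0.55 (median -0.77) in Control livers. All HF livers lay above all HP livers, and 4 of 6 lay above every Control liver, of which Control 5 was the highest. HF over Control was 1.26 ± 0.27 (limma, adjusted p = 0.0095) and HF over HP was 1.13 ± 0.28 (adjusted p = 0.0156). With slide as a fixed block these were 1.35 and 1.24 and missed the threshold (adjusted p = 0.0532 and 0.193). Within slides HF exceeded Control livers by 1.27, 1.47 and 1.84 on slides 1, 2 and 3, and the HF liver of slide 1 exceeded its HP livers by 0.31. HP over Control was 0.12 (95% interval -0.43 to 0.68). Without Control 6, HF over Control was 1.29.

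By groups that do not overlap, 2 of 12 probes (AKR1C3l1 and Sult1e1) separated HF from Control livers, against 1.9% of all probes in either direction and 0.767% higher, and 4 of 12 separated HF from HP livers, against 4.98% in either direction and 2.15% higher. No probe of the 9 genes separated HP from Control livers, where 0.783% of all probes did in either direction and 0.506% higher. A test for any diet difference (limma F test) passed for Akr1c1 (adjusted p = 0.0084), AKR1C3l1 (adjusted p = 0.0061), Sult1e1 (adjusted p = 0.000389) and Nat8 (adjusted p = 0.0098), and for none of the other 5 genes, against 6.57% of all probes. For these 4 genes the order of group means was HF first, with HP and Control not told apart.

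How the genes varied among rats of the same diet was asked by subtracting diet means from the brightest probe of each gene and correlating all 36 pairs over 19 livers. Akr1c1 with AKR1C3l1 gave the highest Pearson r (Pearson r = 0.66, permutation p = 0.0034, Spearman rho = 0.63, permutation p = 0.0064), and r was 0.67 without the 2 livers farthest from the median of Akr1c1. Their adjusted values over 36 pairs were 0.122 and 0.115, so the pair did not pass. Sult1b1 with Nat8 gave the lowest r, and a rho farther from 0 than that of the AKR pair (r = -0.60, permutation p = 0.0137, adjusted p = 0.246; rho = -0.70, permutation p = 0.0027, adjusted p = 0.0983), and r was -0.45 without the 2 farthest livers. Of the 36 pairs 0 passed the adjusted threshold for Pearson r, 2 had an unadjusted p under 0.05, and 26 had a positive r. Probes of 1 array share its hybridisation, and AKR1C probes may also share a transcript.

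**Figure D3:**
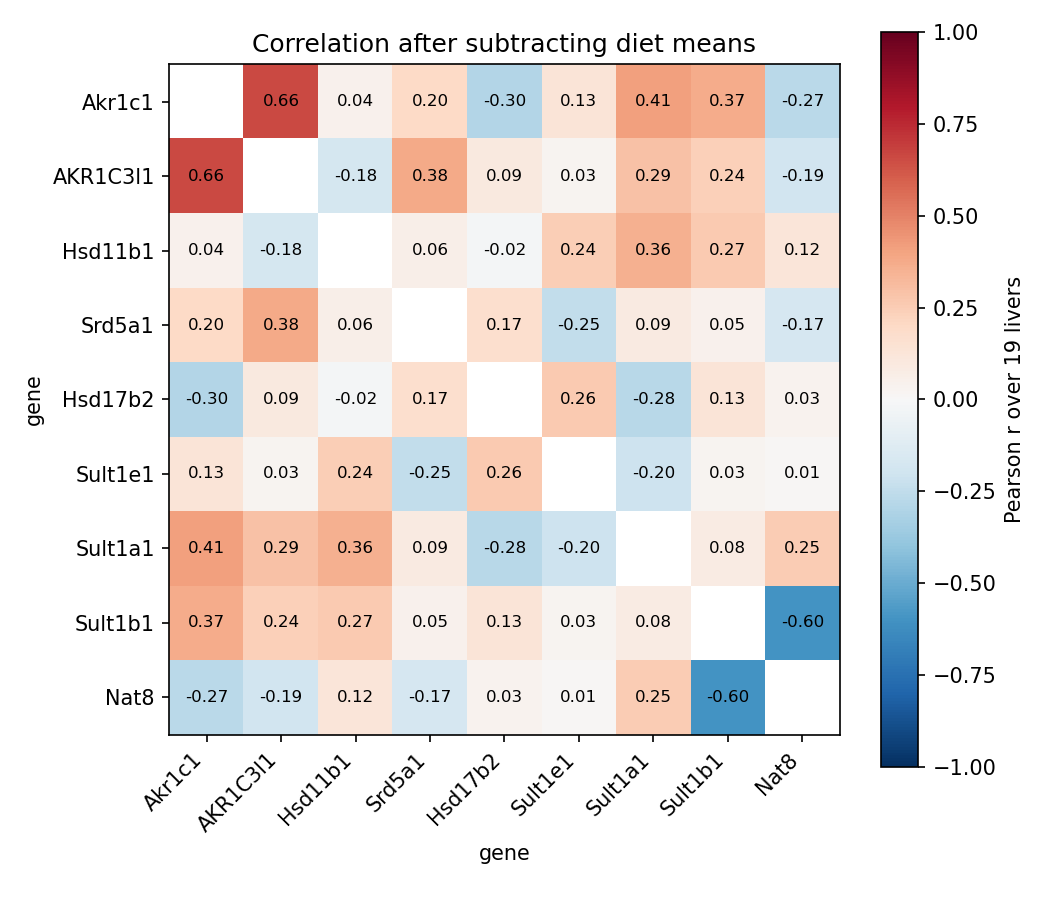
Pearson r between the brightest probes of each pair of genes over 19 livers after subtracting diet means; both axes list the 9 genes and colour gives r from -1 (blue) to 1 (red). Akr1c1 with AKR1C3l1 (0.66) and Sult1b1 with Nat8 (-0.60) stand out, and neither passed the adjusted threshold.

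The 3 named genes whose log ratios were most like each called gene over the 19 livers, diet differences included, are given as a description. For Akr1c1 they were AKR1C3l1 (r = 0.86), Rgn (r = 0.80) and Nrxn3 (r = 0.80). AKR1C3l1 was followed most closely by Ttll9 (r = 0.87), Adh1c (r = 0.86, over 18 livers) and Akr1c1. For Sult1e1 they were Nr2f2 (r = 0.90), Spmip11 (r = 0.88) and Pnp (r = 0.87). For Nat8 they were Slc1a2, a glutamate transporter (r = 0.90), Pam (r = 0.87) and Caln1 (r = 0.85). Without diet means every one of these values was lower. For Akr1c1 they were 0.66 (AKR1C3l1), 0.51 (Rgn) and 0.49 (Nrxn3), and for AKR1C3l1 with Ttll9 and Adh1c 0.71 and 0.72. For Sult1e1 they were 0.74 (Nr2f2), 0.56 (Spmip11) and 0.43 (Pnp), and for Nat8 0.77 (Slc1a2), 0.70 (Pam) and 0.59 (Caln1).

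Other genes of steroid reduction and dehydrogenation (33 measured of 39 listed) gave 4 higher and 1 lower in HF over Control livers by the brightest probe of each gene, with a median log2 fold change of 0.10. Over all probes 1.72% were higher and 1.73% lower, with a median of -0.01. Hsd17b11 (0.46 ± 0.08, limma adjusted p = 0.0015), Dhrs4, a short-chain dehydrogenase (0.37, adjusted p = 0.0057), Cyb5a, the cytochrome b5 that donates electrons to steroid enzymes (0.35, adjusted p = 0.0231), and Hsd17b10 (0.27, adjusted p = 0.0470) rose; without Control 6, Hsd17b10 missed the threshold (0.26, adjusted p = 0.0669). Akr1d1, the steroid 5β-reductase, was not called by its brightest probe (0.35, adjusted p = 0.308), but its other probe was (0.39, adjusted p = 0.0066; in HF over HP livers 0.32, adjusted p = 0.0234). Hsd17b13, a lipid droplet protein, fell (-0.45, adjusted p = 0.0487) and was chosen after its value was seen. Akr1c3, a paralog of the AKR genes above, was the 1 gene of this list higher in HP over Control livers (0.55 ± 0.12, limma adjusted p = 0.0415). Over all probes 0.308% were higher there. Without Control 6, Akr1c3 missed the threshold (0.56, limma adjusted p = 0.0527). In HF over HP livers Akr1c3 was lower (-0.61 ± 0.12, limma adjusted p = 0.0041) while Dhrs4 (0.41) and Hsdl2 (0.40) rose. Over all probes 3.27% were higher and 3.81% lower there. Akr1c3 and the pair above thus moved in opposite directions between HF and HP livers. The other listed AKR1C genes that were measured were not called in either HF comparison. In HF over Control livers Akr1c2 had 0.64 (limma, adjusted p = 0.0730) and Akr1c14 0.26, and Akr1c12, Akr1c12l1, Akr1c15 and Akr1c19 had -0.07 to 0.10.

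Other sulfonation genes (20 measured of 26) gave 1 higher and 0 lower in HF over Control livers by the brightest probes, a share near that over all probes (1.72% higher), with a list median of 0.0039. It was Sult1c2a (0.62 ± 0.15, limma adjusted p = 0.0191), of whose 3 other probes those at 0.49 (adjusted p = 0.0256) and 0.54 (adjusted p = 0.0411) passed and that at 0.61 (adjusted p = 0.0764) did not. Its close relative Sult1c2 had 0.54 (adjusted p = 0.0516) on its brightest probe, and its other probe was called at 0.99 (adjusted p = 0.0220). Both Sult1c2 probes passed in HF over HP livers (0.58, adjusted p = 0.0277, and 1.01, adjusted p = 0.0154), as did Sult1c2a (0.56, adjusted p = 0.0278). Without Control 6 the HF over Control count was 2 higher and 1 lower, with Sult1c2 (0.58, adjusted p = 0.0390) and Sult4a1 (-1.21, adjusted p = 0.0156) added. None of this list passed in HP over Control livers, where 0.447% of all probes did. Other acetylation and mercapturate genes (21 measured of 30) gave 3 higher and 0 lower in HF over Control livers, against 1.72% and 1.73% of all probes, with a list median of 0.11. These were Sat2, an acetyltransferase (0.73 ± 0.12, adjusted p = 0.0014), Glyatl2, a glycine acyltransferase (0.57 ± 0.10, adjusted p = 0.0027), and Acy3, an aminoacylase that removes acetyl groups from mercapturates (0.31 ± 0.08, adjusted p = 0.0241). Glyatl2 was higher in HF over HP livers (0.64) and Ggt5, a γ-glutamyl transferase, was lower (-0.23). Over all probes 3.27% were higher and 3.81% lower there. Without Control 6 this list gave 4 higher and 2 lower in HF over HP livers, where 2518 of all probes passed, against 1791 with it.

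**Figure D4:**
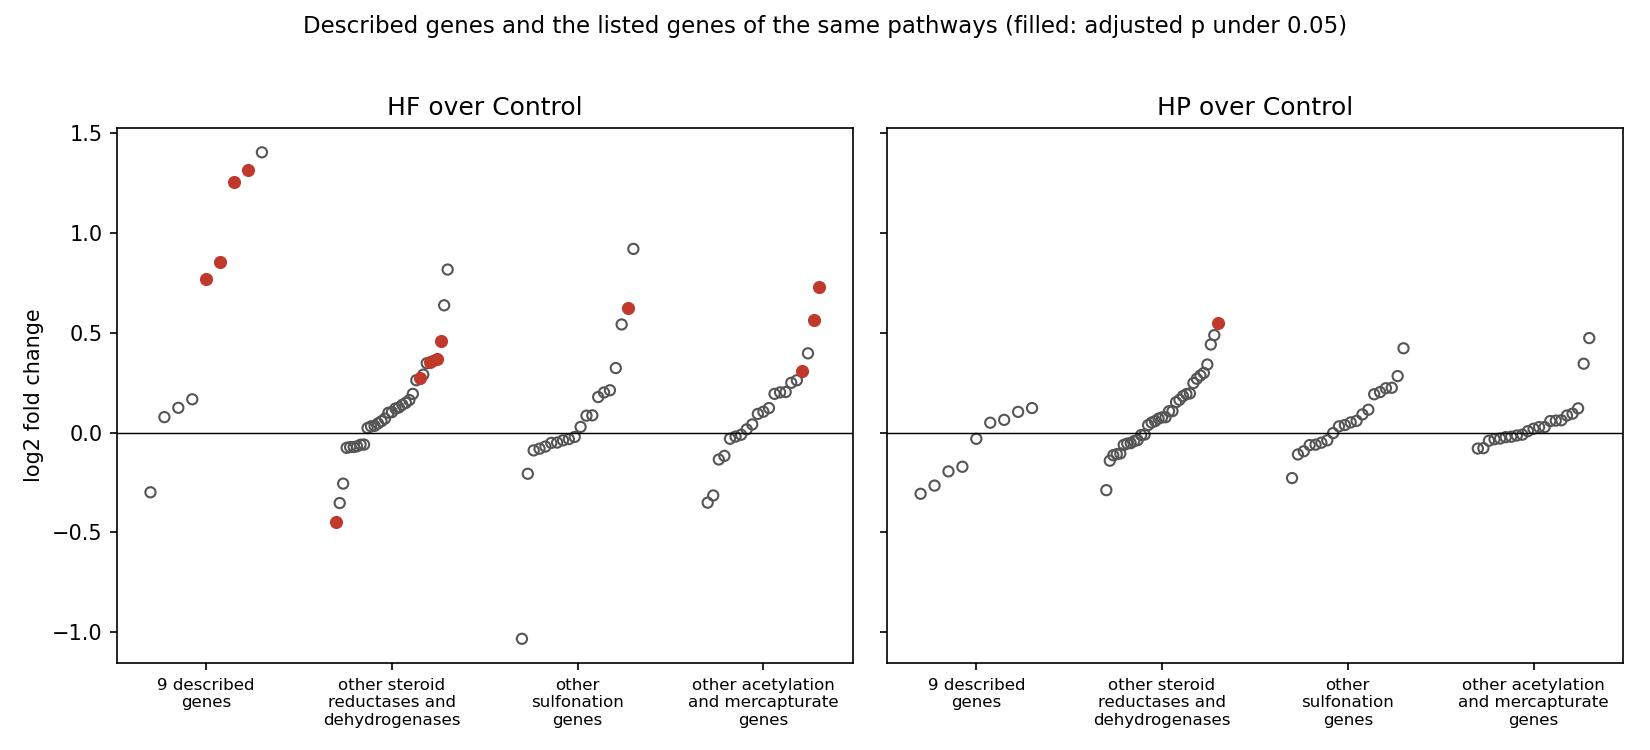
Log2 fold change (vertical axis) of the 9 described genes and of the other listed steroid, sulfonation and acetylation genes, each by its brightest probe and sorted within its column, for HF over Control (left) and HP over Control (right); filled points have an adjusted p under 0.05. In HF over Control, 4 described genes are filled, as are 4 higher and 1 lower steroid genes, 1 sulfonation gene and 3 acetylation genes, and in HP over Control Akr1c3 alone is filled.

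Genes with sex-biased expression in rat liver were counted because the steroid enzymes are among those that differ between the sexes. Of 15 male-biased genes 2 were higher in HF over Control livers, Cyp3a2, a steroid hydroxylase (1.27 ± 0.14, limma adjusted p = 6.89e-05), and Rgn (0.69, adjusted p = 0.0033), and 0 were lower, with a list median of 0.16. Of 14 female-biased genes measured 1 was lower by the brightest probes, the growth hormone receptor Ghr (-0.28, adjusted p = 0.0325), and 0 were higher, with a list median of 0.11. Over all probes 1.72% were higher and 1.73% lower. The 2 other Ghr probes were not called (-0.19, adjusted p = 0.108, and -0.06, adjusted p = 0.832). None of either list passed in HP over Control livers, where 0.447% of all probes did. In HF over HP livers the same 3 genes were called, Cyp3a2 (1.24), Rgn (0.65) and Ghr (-0.51), where 3.27% of all probes were higher and 3.81% lower. The other Ghr probes had -0.15 (limma, adjusted p = 0.204) and 0.07 (adjusted p = 0.816).

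Glucocorticoid targets (19 measured of 20) gave 0 higher and 2 lower in HF over Control livers, Sgk1 (-1.42 ± 0.31, limma adjusted p = 0.0125) and Angptl4 (-0.79, adjusted p = 0.0222), against 1.72% and 1.73% of all probes. The list median was positive (0.14), and of the other named targets Mt1, a metallothionein, had 1.74 (adjusted p = 0.111) and Tdo2, tryptophan dioxygenase, 0.49 (adjusted p = 0.0516). Without Control 6 the count was 1 higher, Tsc22d3 (0.69, adjusted p = 0.0334), and 2 lower. In HF over HP livers 4 were lower: Tat, tyrosine aminotransferase (-1.02), Sgk1 (-1.10), Dusp1 (-0.92) and Angptl4 (-0.69). Over all probes 3.27% were higher and 3.81% lower there. The list median was 0.09, and in HP over Control livers 0 passed, against 0.447% of all probes. Among steroid and xenobiotic receptors and regulators (27 measured of 29), Nr1i3, the constitutive androstane receptor, was higher in HF over Control livers (1.19 ± 0.22, adjusted p = 0.0029), and Mlxipl (-0.70) and Srebf1 (-0.80), regulators of sugar-driven and insulin-driven lipid synthesis, were lower. The other Nr1i3 probe also passed (1.11, adjusted p = 0.0034). Of the 2 other Srebf1 probes 1 passed (-0.77, adjusted p = 0.0207) and 1 did not (-0.12, adjusted p = 0.192). In HF over HP livers Nr1i3 was higher (1.09) and Stat5b (-0.48), Mlxipl (-0.55) and Srebf1 (-0.95) were lower. This made 1 higher and 3 lower of 27, against 3.27% and 3.81% of all probes. In HP over Control livers 0 of the 27 passed.

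Most markers of liver cell types did not pass the test. Over all probes 1.72% were higher and 1.73% lower in HF over Control livers. These shares were 0.308% and 0.138% in HP over Control livers and 3.27% and 3.81% in HF over HP livers. In HF over Control livers 0 of 10 hepatocyte, 0 of 9 lymphocyte, 0 of 10 macrophage, 0 of 7 endothelial and 0 of 6 bile duct markers passed, and 2 of 10 stellate cell markers were higher, Rgs5 (0.60, limma adjusted p = 0.000394) and Reln (0.52, adjusted p = 0.0037). In HP over Control livers Rgs5 was higher (0.45, adjusted p = 0.0215). In HF over HP livers 2 of 10 hepatocyte markers, Ttr (-0.33) and Serpina1 (-0.41), were lower by the brightest probes. So was 1 of 10 macrophage markers, Lyz2 (-0.77), and 1 of 10 stellate markers, Reln, was higher (0.35). Other probes of Alb (-0.45 and -0.41, adjusted p = 0.0270 for each) and Ahsg (-0.30, adjusted p = 0.0140) were also lower there, while their brightest probes (0.02 and -0.20) and the other Ttr probe (0.20) were not called. Array medians of the stellate markers ran from -0.17 to 0.56 in HF livers, -0.05 to 0.22 in HP livers and -0.17 to 0.47 in Control livers. Their part in the results for the 9 genes was not tested.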

How the data were processed

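The deposited scanner files hold intensity per spot for signal and local background, and the software was Agilent Feature Extraction 10.5.1.1, per the submitters' processing notes and the file headers. The authors also deposited log2 values for 22764 features with a common median of 8.205 on every array; how they were made is not given in the sources used here, and they served as an alternative. Background was subtracted by normexp (offset 50), and 40 spots on 5 arrays were left out for a local background over 50 units brighter than the spot. Loess within arrays gave normalised Cy5 over Cy3 log2 ratios, outlier spots were dropped and spots of a probe were averaged. Probes well above background in Cy5 on at least 6 of 19 arrays were kept (25290).

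One limma 3.58.1 model (R 4.3.3) over the 3 diets gave two-sided moderated tests, adjusted by Benjamini-Hochberg over all kept probes, with a call at an adjusted p under 0.05; the fit was tested on simulated data. Each array is a separate rat, so the p-values measure the spread between rats. Pairs of genes were tested in Python 3.11.15 with 100000 shuffles of rats within diets, also without Control 6. The genes and lists were chosen with earlier results of these data known. Beside the 9 genes, up to 4 genes of each list with the smallest p per comparison and the 3 genes most like each gene with a called F test were named. Lists covered steroid, sulfonation and acetylation genes, sex-biased genes, glucocorticoid targets, receptors and cell markers. Like-numbered rats of different diets had a mean correlation of -0.0092 over 18 pairs, against 0.0011 over 102 unlike pairs. Of 19 rats 5 matched best with their own number, and the rate by chance was not worked out. Rats were thus fitted as unpaired, and a pairing was not tested. Alternatives covered background, normalisation, filter, gene summary, slide, the samples fitted and single rats. Promoters came from RefSeq (GRCr8).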

Additional observations from a re-analysis of the deposited data

Results flagged for a closer look

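In 6 of 54 sets of 6 or 7 livers (12 probes and 6 marker medians in 3 diets) the highest or lowest liver lay far from the others by Dixon's criterion, and chance gives about 1 in 20. Hsd11b1 held 3 of them. HF 6 had -0.45 on its first probe, against 0.04 for the next HF liver, and -0.10 on the second, against 0.38. The Hsd11b1 probes followed each other over the 19 livers (r = 0.94). These flags are thus 1 liver read on both, and the 54 sets are not all independent. HP 4 had -0.28 on the second probe, against 0.06 for the next HP liver. The lymphocyte median of Control 6 was 2.56, against -0.60 for the next Control liver. The stellate median of Control 1 was 0.47, against 0.07, and the bile duct median of HP 2 was 0.31, against 0.02. Among the probes of Akr1c1, AKR1C3l1, Sult1e1 and Nat8 no liver met the criterion.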

How the results depend on the processing

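All 8 calls of the 9 genes (4 in each HF comparison) kept their direction under the 14 alternatives and without each rat, and 0 values of the 9 genes reversed from a call. Slide as a fixed block ended 4 calls, with HF over Control at 0.87 for AKR1C3l1 (adjusted p = 0.0537) and 1.35 for Nat8 (0.0532) and HF over HP at 0.67 for Sult1e1 (0.116) and 1.24 for Nat8 (0.193); 1 slide held both HF and HP livers. Akr1c1 stayed just under the threshold with slide as a fixed block, at adjusted p = 0.04998 for HF over Control and 0.0442 for HF over HP (limma). AKR1C3l1 had 0.0436 for HF over HP. Slide as a random block (correlation 0.034) ended none. Median centring ended the HF over Control call of AKR1C3l1 (0.75, adjusted p = 0.0517), and leaving out HF 5, HF 3 or Control 2 ended that of Akr1c1. The cause was not tested. Over all probes, slide as a fixed block gave 477 calls for HF over Control against 874, 24 for HP over Control against 113, 365 for HF over HP against 1791 and 525 for the F test against 1662. HP over Control also gave 61 with normexp fitted on all spots, 63 with processed signals, 32 with median centring, 53 with Cy5 alone and 39 with those 2 groups only. The replicate block gave 692, 238 and 1627 calls for HF over Control, HP over Control and HF over HP and 1559 for the F test, and it changed no call of the 9 genes. Without single rats, counts ran from 649 to 1000 for HF over Control, 26 (without HP 2) to 460 (without Control 7) for HP over Control, 1332 to 2518 for HF over HP and 1256 to 2139 for the F test. Counts of the gene lists without Control 6 were an alternative chosen after seeing the data. The pairs passing stayed at 0 without Control 6. Scaling between arrays by Aquantile leaves log ratios as they are. The settings for the filter and the gene summary keep them too and change only the set of probes fitted. Those for slide, the replicate block and the 2 groups compared also keep the log ratios and change only the model or the livers fitted. Limits are the number of rats, the lack of a dye swap, probes that may read paralogs, and dim signals, which compress ratios.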
